A study of Nothobranchius furzeri with 6 samples.

Results

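The miR-17-92 cluster and its paralogues were followed through 4 rows of a small RNA count table from killifish brain: nfu-mir-92, nfu-mir-25, nfu-mir-19 and nfu-mir-17. The rows were chosen by exact name, and all 4 names were found among the 324 rows of the table. The libraries came from brain total RNA of male turquoise killifish of strain MZM-04/10p (Nothobranchius furzeri, an annual fish with a short natural lifespan), and every library is labelled 39 weeks old. There are 6 libraries in 1 group with no treatment, mutation or other age, so levels, ratios and joint variation can be described but no change with age. The numbers 1 to 6 only name the libraries. Since no label says that they are 6 different animals, each p-value speaks only of the spread among these samples.

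In vertebrates, the miR-17-92 cluster is a single primary transcript that is processed into several miRNAs, among them members of the miR-17, miR-19 and miR-92 families. A paralogous cluster carries miR-25 together with miR-93 and miR-106b, which belong to the miR-17 family by their seed, the short 5′ stretch that pairs with target mRNAs. The families differ in seed, except that miR-25 and miR-92 share theirs. In mammals the cluster is switched on by MYC and E2F transcription factors. It promotes proliferation and survival there by repressing the cell cycle inhibitor p21 and the pro-apoptotic BIM, among others, and in the mouse brain it is best known from neural progenitors.

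Total counts per library ranged from 11924483 to 16597229. Of miRNA families known from brain, all 6 listed neuronal rows were present, with a summed level of 81042 to 133437 CPM. To this sum mir-128 gave 65311 CPM on average and mir-124 gave 4069 CPM. The row mir-9, known from progenitors as well as neurons, stood at 48163 to 58086 CPM. All listed rows of blood cells, vessel wall and muscle were present too, so presence is no check of the labelled tissue. CPM is the count relative to the library total, after scaling of the libraries with TMM factors. Library 5 was the highest library for 51 of the 214 rows tested, against 28 to 39 rows for each of the other libraries. It bears on several results on the cluster, which are therefore also given without it.

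The 4 rows together took a small part of the small RNA, 2.12% ± 0.238 of all counts (SD, n = 6). By library, the share was 2.07%, 2.07%, 2.10%, 2.08%, 2.57% and 1.85% in libraries 1 to 6. Library 5 was the highest and library 6 the lowest, and the other libraries lay within 2.07% to 2.10%.

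The row mir-92, named for the family that closes the cluster in vertebrates, was counted 201825, 236740, 283130, 197971, 262420 and 185218 times in libraries 1 to 6. Its level was 16400, 16073, 16289, 16897, 21417 and 15130 CPM in the same libraries. Library 5 stood clear of the others. The mean was 17034 ± 2224 CPM (SD, n = 6), which placed mir-92 14th of all rows, between the oligodendrocyte family mir-338 at 17550 CPM and mir-21 at 12132 CPM. Without library 5 the mean was 16158 ± 649 CPM and the coefficient of variation was 4.02%, against 13.1% with it.

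The row mir-25, named for a family of the paralogous cluster, was far lower. Its level was 1683, 2005, 1713, 2083, 2702 and 1987 CPM in libraries 1 to 6. Library 5 was again the highest, and libraries 1 and 3 were the lowest. The mean was 2029 ± 368 CPM (SD, n = 6), 35th in the table and next above mir-29 at 1998 CPM. This row varied most of the 4, with a coefficient of variation of 18.1%, and of 9.65% without library 5.

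The row mir-19, the family credited in mouse lymphoma with much of the oncogenic activity of the cluster, was the steadiest. It stood at 1204, 1324, 1147, 1155, 1170 and 1228 CPM in libraries 1 to 6. Library 2 was the highest, and library 5 was below the mean. The mean was 1205 ± 66.1 CPM (SD, n = 6), with a coefficient of variation of 5.49%. Its rank was 44th, just below mir-489 at 1312 CPM and above the neuronal family mir-218 at 1146 CPM.

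The row mir-17, the family that gives the cluster its name and targets p21 in mammals, was the lowest of the set. It stood at 875.1, 1002, 938.0, 989.1, 1115 and 944.3 CPM in libraries 1 to 6. As for mir-92 and mir-25, library 5 was the highest, and as for mir-25, library 1 was the lowest. The mean was 977.2 ± 80.9 CPM (SD, n = 6), 48th in the table between mir-133 at 1076 CPM and mir-299 at 950.2 CPM. Counting error is small beside these differences: the exact 95% interval of mir-17, the row with fewest counts, ran from 1096 to 1133 CPM in library 5, and in library 1 from 858.6 to 891.7 CPM.

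**Figure D1:**
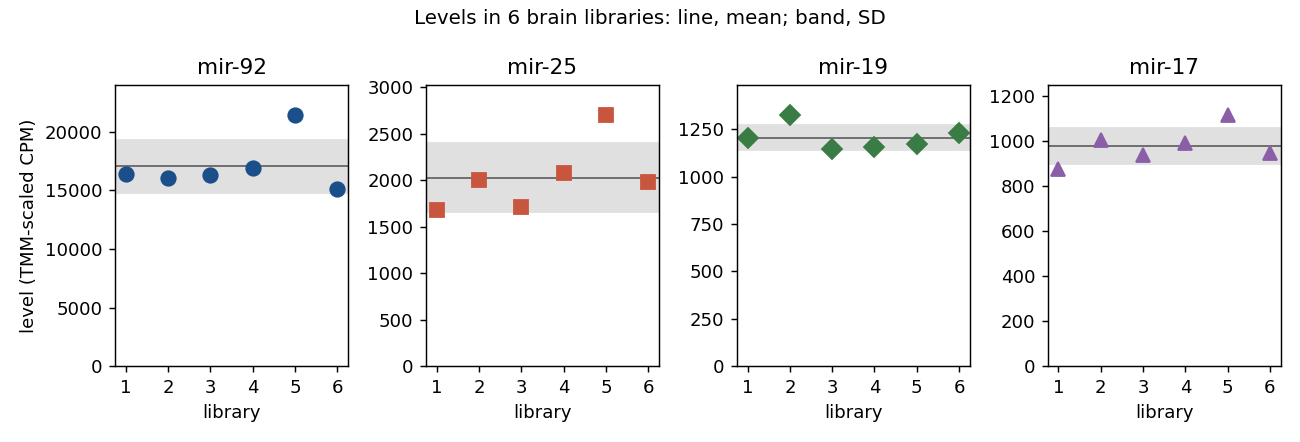
Level of each row in TMM-scaled CPM (vertical axes from 0, a separate scale for each row) in libraries 1 to 6, with the mean as a line and the SD as a band. mir-92 reached 21417 CPM in library 5, against 15130 to 16897 CPM in the others, while mir-19 stayed between 1147 and 1324 CPM.

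The order mir-92, mir-25, mir-19, mir-17 held within each of the 6 libraries. The ratio of mir-92 to mir-25, the rows that share a seed, was 8.45-fold on average, and 7.61-fold to 9.74-fold across libraries. Between rows named for families of the cluster, which are not split by family member, mir-92 exceeded mir-19 by 14.1-fold and mir-17 by 17.4-fold. In log2 units these 3 ratios were 3.08 ± 0.15, 3.81 ± 0.22 and 4.12 ± 0.11 (mean ± SD, n = 6). The smaller steps were 0.74 ± 0.26 for mir-25 over mir-19, 1.04 ± 0.14 for mir-25 over mir-17, and 0.30 ± 0.14 for mir-19 over mir-17. For each of the 6 pairs an exact permutation test that flips the signs of the log2 ratios gave a two-sided p of 0.031, which is the floor for 6 libraries and was not changed by Benjamini-Hochberg adjustment over the pairs. With 5 libraries the floor is 0.062, so no pair can pass with a library left out. The kit ligates adaptors to the RNA ends with an efficiency that depends on sequence, so these ratios between rows hold ligation bias as well as abundance.

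The narrowest step was mir-19 over mir-17 in library 5. There mir-19 was counted 14340 times and mir-17 was counted 13658 times, a ratio of 1.05-fold. In library 1 the ratio was 1.38-fold and in library 2 it was 1.32-fold. The ratio of mir-25 to mir-19 moved most, at 2.31-fold in library 5 and 1.40-fold to 1.8-fold in the others.

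Within the set, mir-92 made up most of the counts, with a share between 78.4% and 81.3%. It took 81.3%, 78.8%, 81.1%, 80.0%, 81.1% and 78.4% of the set in libraries 1 to 6. In library 5, where its level was highest, its share of 81.1% (exact 95% interval 81.0% to 81.2%) lay within the range of the other libraries. The share of mir-25 was 9.52% ± 0.858 and that of mir-17 was 4.62% ± 0.285 (SD, n = 6). The share of mir-19 was 4.43% in library 5, against 5.47% to 6.49% in the other libraries. mir-92 and mir-25, with their common seed, together held 89.6% ± 0.986 of the set (SD, n = 6). Families alike in sequence can share reads. No sequences were used here, so how far this touches the split between mir-92 and mir-25 is not known. The files do not say how reads that match both were counted.

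Relative to the 48 rows at least as abundant as mir-17, mir-19 and mir-17 varied little between libraries, mir-92 was in the middle and mir-25 varied more than most. With mir-92 14th by mean level, many of these rows are less abundant than mir-92. The log2 SD, taken on log2(CPM + 1), was 0.17 for mir-92, 0.25 for mir-25, 0.08 for mir-19 and 0.12 for mir-17. Their median was 0.15, against 0.27 over the 214 rows with a mean of at least 10 counts and 0.18 over the 48 rows at least as abundant as mir-17. Only 4 of the 214 rows had a lower log2 SD than mir-19: mir-181, let-7, mir-BART15 (a name from a viral miRNA) and mir-204, each more abundant than mir-19. Of the 48 abundant rows, 35 had a lower log2 SD than mir-25, 20 than mir-92, 11 than mir-17 and 4 than mir-19. All 4 rows passed the count minimum of 10, and none was called in the fit across all rows, edgeR's goodness-of-fit test at the trended dispersion with Benjamini-Hochberg adjustment. It called 8 of 214 rows, or 3.74%, and 18 rows had an unadjusted p under 0.05, none of them among the 4. Each of the 4 had an adjusted p of 0.9999 in that edgeR test. This does not show that the rows were equal across libraries: by a Poisson index of dispersion all 4 differed by more than counting noise, as did 82.7% of the rows tested.

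**Figure D2:**
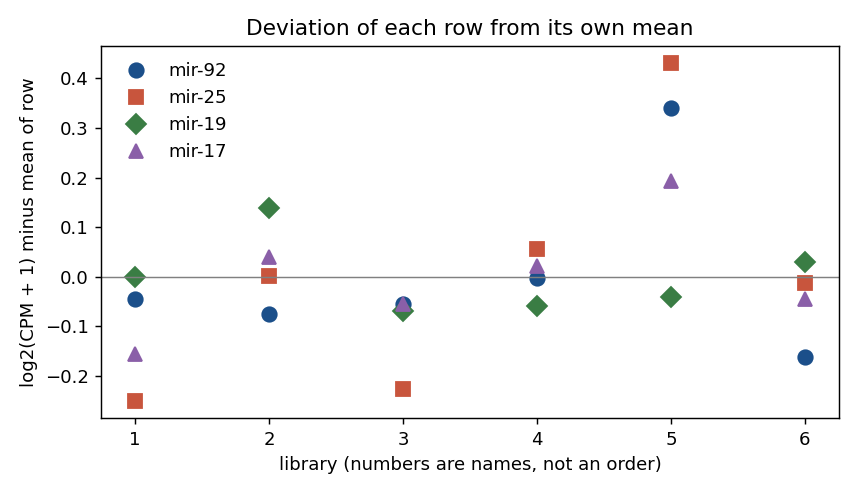
Deviation of log2(CPM + 1) from the mean of each row, by library. In library 5 mir-92, mir-25 and mir-17 lay above their means and mir-19 slightly below, and in library 2 mir-19 was the row farthest above.

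Library 5 separated the set into rows that were higher there and a row that was not. On the log2 scale, library 5 differed from the mean of the other libraries by 0.52 for mir-25, 0.41 for mir-92, 0.23 for mir-17 and -0.05 for mir-19. The median over all 214 rows was 0.03. By Dixon's ratio for 6 values, library 5 stood apart for mir-92 (ratio 0.719, past the 95% critical value) and not for mir-25 (0.608), mir-17 (0.468) or mir-19. For mir-19 the ratio was 0.539, set by library 2. In the whole table, 5.14% of the tested rows had a library apart by this criterion, and in 1.87% it was library 5 as the highest. Without any scaling factor the criterion picked mir-25 (0.649) and not mir-92 (0.596).

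Listed families of other cell types had these levels in library 5. The summed level of the erythroid rows mir-451 and mir-144, both present, was 191.4 CPM in library 5, against 387.2 to 625.4 CPM in the others. The vessel wall families, all 3 present, summed to 6869 CPM in library 5, against 7451 to 10081 CPM in the others, with mir-126 and mir-143 at their lowest there and mir-145 at its lowest in library 4. White blood cell and microglial families, all 5 present, summed to 605.5 CPM in library 5, against 405.0 to 542.6 CPM in the others. Of that sum mir-146 gave 418.7 CPM, its highest, while mir-142 was at its lowest in library 5, at 116.6 CPM, mir-150 was highest in library 5, mir-155 in library 4 and mir-223 in library 1. None of these 10 rows was at 0. None was called in edgeR's fit, which called only 3.74% of all rows tested, so the lack of calls says little about them. Neuronal families summed to 102102 CPM in library 5, within the 81042 to 133437 CPM of the others. Their rows differed: mir-138 was at its highest in library 5, at 5991 CPM, and mir-153 at its lowest there, at 5869 CPM. For mir-124, mir-128, mir-132 and mir-137 library 5 was neither the highest nor the lowest. The oligodendrocyte families summed to 17014 CPM in library 5, within 15942 to 21011 CPM. The part of these families in the mir-92, mir-25 and mir-17 levels was not tested. In whole tissue, fewer cells of a type and less of an RNA per cell cannot be told apart.

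Whether rows named for families of the cluster or of its paralogue moved together over the libraries was examined for the 6 pairs. The rows are not split by family member and no coordinates were used, so the transcripts behind each row are not known. The closest pair was mir-25 and mir-17. Whether the mir-17 row also holds family members from the cluster of mir-25 is not known. The pair had Pearson's r = 0.95 (p = 0.00417 by exact permutation, 0.025 adjusted over 6 pairs) and Spearman's rho = 0.94 (exact p = 0.0167, 0.1 adjusted). Both rows were highest in library 5, lowest in library 1 and next lowest in library 3. Without libraries 1 and 5, the farthest from the median of mir-25, r was 0.70, and without library 5 alone it was 0.83 (exact permutation, adjusted p = 0.35). The adjusted p of a pair that alone reaches the floor is 0.05 with a library left out, so this pair could not pass there. Without library 5 the adjusted p of this pair was also well above that floor. With plain CPM and no scaling factor r was 0.84 and the pair no longer passed (exact permutation, adjusted p = 0.15). Of all 22791 pairs of tested rows, 84 had an r at least as high, or 0.369%, and of the 1128 pairs among the 48 abundant rows 7 did.

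The r of mir-92 with mir-25 and with mir-17 rested on library 5. mir-92 and mir-25 had r = 0.80 (p = 0.0903 by exact permutation, 0.194 adjusted), with a rho of 0.49 (exact p = 0.356, 0.711 adjusted). mir-92 and mir-17 had r = 0.78 (p = 0.0972 by exact permutation, 0.194 adjusted), with a rho of 0.31 (exact p = 0.564, 0.846 adjusted). Without library 5, r was -0.11 for mir-92 with mir-25 and 0.07 for mir-92 with mir-17. Without libraries 5 and 6, the 2 farthest from the median of mir-92, r was 0.35 and 0.05 in the same order.

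The row mir-19 followed none of the others by r, although its family lies between those of mir-17 and mir-92 in the vertebrate cluster. With mir-17 it had r = -0.02 (p = 0.956 by exact permutation, 0.956 adjusted), with a rho of 0.20 (exact p = 0.714, 0.857 adjusted). With mir-25 it had r = -0.06 (p = 0.910 by exact permutation, 0.956 adjusted), with a rho of -0.03 (exact p = 1.0, 1.0 adjusted). With mir-92 it had r = -0.37 (p = 0.393 by exact permutation, 0.590 adjusted), with a rho of -0.54 (exact p = 0.297, 0.711 adjusted). Without the 2 libraries farthest from the median of the more abundant row, r was -0.58 for mir-19 with mir-17, 0.39 for mir-25 with mir-19 and -0.68 for mir-92 with mir-19. Without the 2 farthest from the median of the less abundant row it was 0.52, -0.50 and -0.62 for the same pairs, so the sign turned for the pairs of mir-19 with mir-17 and with mir-25. None of these 3 pairs passed, which does not show that the rows vary independently.

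**Figure D3:**
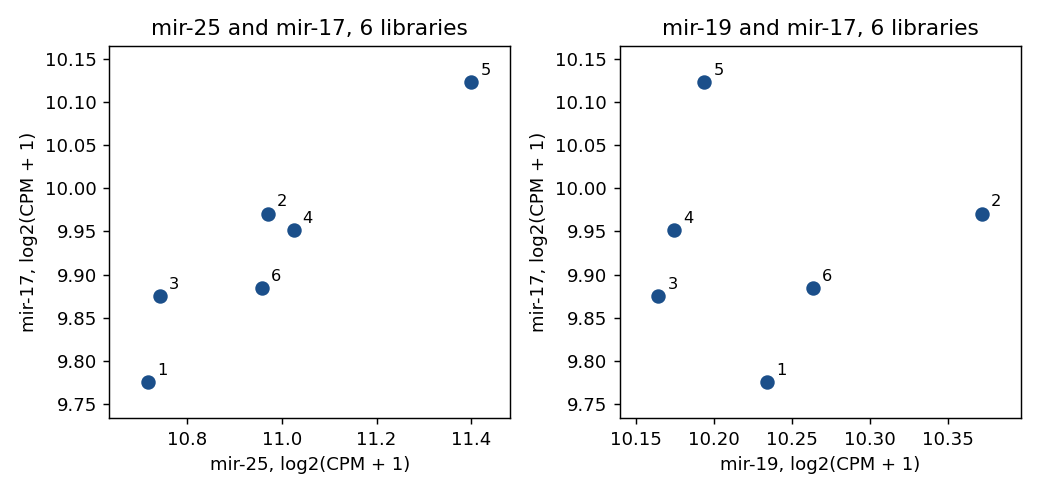
Level of mir-17 against mir-25 (left) and against mir-19 (right), each point a library with its number, both axes in log2(CPM + 1) and not starting at 0. The points of mir-25 and mir-17 lie along a rising line with r = 0.95, while for mir-19 and mir-17 r was -0.02.

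The spread of the within-library ratio gives another view, since library scaling and a constant ligation bias drop out of it. Its log2 SD was 0.11 for mir-92 with mir-17, 0.14 for mir-25 with mir-17, 0.14 for mir-19 with mir-17 and 0.15 for mir-92 with mir-25. It was 0.22 for mir-92 with mir-19 and 0.26 for mir-25 with mir-19. The median over the 6 pairs was 0.15, against 0.27 over all pairs of the 48 abundant rows and 0.51 over all pairs of the 214 rows. By this measure mir-19 with mir-17 was among the steadier pairs despite an r near 0. Both rows had a small log2 SD, and rows that each vary little give a steady ratio without moving together. A small spread of the ratio is therefore no measure of joint variation by itself. Of the 1128 abundant pairs, 3.37% were steadier than mir-92 with mir-17 and 8.69% steadier than mir-19 with mir-17.

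Other families known to be clustered in vertebrates spanned a wider range. Of 13 such pairs listed, 12 had both rows, and the log2 SD of their ratio had a median of 0.27. The tightest were the pairs of the mir-23, mir-24 and mir-27 cluster, at 0.10 to 0.13, close to mir-92 with mir-17. The sensory pair mir-182 and mir-183 stood at 0.15. The widest was the muscle pair mir-1 and mir-133 at 0.59, with the mir-1 row at only 22.9 CPM. Also below mir-17 in mean level were mir-144 at 124.1, mir-145 at 276.6, mir-451 at 346.6 and mir-301 at 397.3 CPM. In contrast, mir-143, mir-15, mir-16, mir-130 and mir-133 lay above mir-17. The median of these pairs is thus not matched in abundance to the 4 rows. By family name, the pairs of mir-25 join the paralogous cluster to the miR-17-92 cluster and are not pairs within 1 cluster. Within the miR-17-92 cluster by name, mir-92 with mir-17 stood at 0.11, mir-19 with mir-17 at 0.14 and mir-92 with mir-19 at 0.22. The difference between the 12 listed pairs and the pairs of the 4 rows was not tested.

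**Figure D4:**
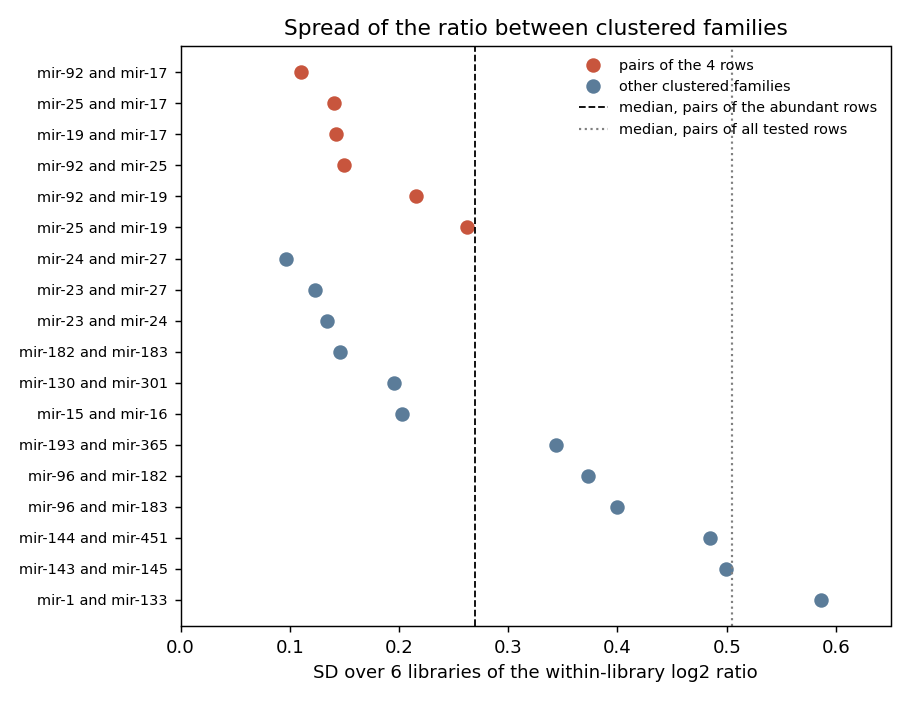
SD over 6 libraries of the within-library log2 ratio for pairs of the 4 rows and for 12 other pairs of clustered families, with the median of all pairs of the 48 abundant rows dashed and that of all tested rows dotted. The 4 tightest pairs of the set lie between 0.11 and 0.15, and its widest, mir-25 and mir-19, at 0.26.

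Of 15 families listed as related by cluster, seed or function, 7 matched a row by name, among them all 4 that restrain the cell cycle, and mir-302, mir-367, mir-32, mir-363, mir-106, mir-20, mir-93 and mir-18 are not analysed here. Whether reads of those families were counted under mir-17, mir-25 or mir-92 is not known. The 7 rows gave 1 call in edgeR's fit, mir-430, beside 3.74% of all rows. This early-embryonic fish family, which shares part of its seed with mir-17, stood at 8.69 ± 6.31 CPM (SD, n = 6). It was at 1.54 CPM in library 1 and 1.09 CPM in library 2, against 8.11 to 15.4 CPM in the others. The families mir-130 and mir-301, whose seed overlaps that of mir-19 with a shift, stood at 1776 ± 126 and 397.3 ± 57.3 CPM, so mir-130 lay between mir-25 and mir-19. Of the families that restrain the cell cycle in mammals, let-7 was at 87977 ± 3406 CPM, mir-16 at 3846 ± 586 CPM, mir-15 at 2802 ± 444 CPM and mir-34 at 256.8 ± 24.9 CPM (SD, n = 6 for each). mir-15 and mir-16 both lay above mir-25, and mir-34 lay below mir-17. Library 5 was the lowest library for mir-16, at 3223 CPM, and for mir-34, at 223.0 CPM, as it was for 41 of the 214 rows. For mir-15 the lowest was library 3 and for let-7 library 6, and the 4 rows summed to 95064 CPM in library 5, within the 90275 to 100960 CPM of the others.

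The rows most like each member by Pearson's r over the 6 libraries, out of 213 others, are given as a description. For mir-92 they were mir-337 (r = 0.95, at 1729 CPM), pred_666 (0.92, at 20.8 CPM) and mir-2985-2 (0.92, at 1.3 CPM), all highest in library 5 and lowest in library 6. For mir-25 they were mir-592 (0.95, at 14.6 CPM), mir-17 (0.95) and mir-210 (0.88, at 296.8 CPM). For mir-17 they were mir-25 (0.95), mir-939 (0.89, at 2.26 CPM) and mir-2184 (0.86, at 2.38 CPM). For mir-19 they were pred_415 (0.91), mir-820 (0.86) and mir-624 (0.82), at 1.04, 2.45 and 0.992 CPM. Several of these rows hold few counts, and with 213 rows and 6 libraries each member had at least 1 row with r of 0.91 or more. By the same measure mir-92 came 8th for mir-17, while mir-19 came 120th for mir-17 and 154th for mir-92.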

How the data were processed

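Small RNA of brain total RNA was sequenced in 6 libraries, made with the TruSeq small RNA kit per the labels' protocols. The authors deposited raw counts, whole numbers for 324 rows (235 miRNA names and 89 predicted features). Tools named, with no role, are SAMtools 1.3.1-9, BWA 0.7.12-r1039, Trimmomatic 0.36 and bcl2fastq 1.8.4, per the submitters' processing notes. For the genome build, the miRNA annotation and reads with several matches, details were not given in the sources used here. Rows are not split by arm or family member. No mature sequences or coordinates were used here.

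Counts were scaled with TMM (edgeR 4.0.16, R 4.3.3; factors 0.958 to 1.05) and given as CPM, and log2 values are log2(CPM + 1). The 214 rows averaging 10 counts or more entered an intercept-only edgeR goodness-of-fit test at the trended dispersion (median coefficient 0.371), adjusted by Benjamini-Hochberg at 0.05. The test was also run on simulated data with larger variation than the 4 rows had. That run cannot tell whether variation as small as theirs would be called. Pairs of rows were compared by exact sign-flip and exact pairing (720) permutation tests, two-sided (Python 3.11.15, SciPy 1.17.1). Intervals are exact (Clopper-Pearson) at 95% and cover counting error only. DESeq2 1.42.0 size factors and dispersion outliers were alternatives. Members, lists and tests were chosen with earlier results of these data known. Named rows were the 4 members, their neighbours in mean CPM, the 3 rows most like each, and listed related families and cell type markers. The markers included muscle (3 rows, 796.8 to 1295 CPM in sum, none called, beside 3.74% of all rows tested). The mir-222 family of the pair list matched no row by that name.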

Additional observations from a re-analysis of the deposited data

Results flagged for a closer look

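Dixon's criterion was applied to 15 levels, shares and ratios of the 4 rows, and 2 passed it. Over 6 values chance flags about 1 in 20. In library 5 mir-92 reached 21417 CPM (exact 95% interval 21336 to 21498), while the others held 15130 to 16897 CPM. The 4 rows together took 2.57% of all counts in library 5, against 1.85% to 2.10% in the others. The values are not independent, since mir-92 makes up most of the set.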

How the results depend on the processing

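With mir-181 left out of the totals, the mean levels were 24069 CPM for mir-92, 2867 for mir-25, 1702 for mir-19 and 1381 for mir-17, since the total shrank. Neither DESeq2 size factors nor unscaled CPM shifted any of the 4 by 1 SD, and factors that centre on 1 could hardly do so. Leaving out a library cannot move a mean of 6 that far (mir-92 16158 to 17415, mir-25 1894 to 2098, mir-19 1181 to 1216, mir-17 949.8 to 997.7 CPM). The number of rows called was 3 as DESeq2 dispersion outliers, 177 by the Poisson index and 6 to 9 without a library. Without a library, which leaves no pair able to pass, log2 ratios were 3.04 to 3.11 for mir-92 over mir-25, 3.74 to 3.86 over mir-19 and 4.09 to 4.14 over mir-17, 0.64 to 0.79 for mir-25 over mir-19, 0.99 to 1.07 over mir-17, and 0.27 to 0.35 for mir-19 over mir-17. For mir-25 with mir-17, r was 0.83 to 0.97 without a library (exact permutation, adjusted p 0.05 to 0.35). With a library left out, the smallest exact p becomes 0.05 after adjustment when a pair reaches it alone, so this pair could not pass there. It was at that floor without library 2 or library 4, and above the floor without any of the other libraries. Its r was 0.84 with no scaling factor and 0.70 without the 2 farthest libraries, and rho was 0.94. The pair passed with DESeq2 size factors and with mir-181 left out. For mir-19 with mir-17 the sign turned by rho (0.20), with mir-181 left out (0.012), and within the -0.36 to 0.32 found without a library. It also turned without the 2 libraries farthest by mir-17 (0.52), though not by mir-19 (-0.58). For mir-25 with mir-19, r was -0.31 to 0.33 without a library. It was 0.39 without the 2 farthest by mir-25 and -0.50 without the 2 farthest by mir-19. Without a library r was -0.11 to 0.89 for mir-92 with mir-25, 0.07 to 0.93 for mir-92 with mir-17 and -0.49 to -0.32 for mir-92 with mir-19. The causes were not tested. No pairing of samples between groups was possible because the samples form 1 group.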
